A study of Mus musculus with 6 samples.

Results

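The complement genes described here are the 3 chains of C1q (C1qa, C1qb and C1qc), the central components C3 and C4b, the anaphylatoxin receptors C3ar1 and C5ar1, and the membrane regulators Cd55 and Cd59a. They were taken by gene symbol from the deposited tables and are 9 of the 55421 genes listed there. All 9 were found, each in 1 row, and all 9 passed the minimum of 10 counts over the libraries that a gene needed to be tested.

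Complement is a cascade of proteins that marks targets for removal and, at its end, can pierce membranes. In the classical pathway C1q binds a target, its associated proteases cut C4 and C2, and the convertase that forms cuts C3 into a fragment that tags the surface and a small fragment, an anaphylatoxin, that signals through its receptor. In the brain, microglia are the main source of C1q and astrocytes are a main source of C4, C1q and C3 can tag synapses for removal by microglia, and membrane proteins such as Cd55 and Cd59a protect host cells.

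The cerebral cortex was microdissected from wild-type C57BL/6J male mice, 3 young adults of 6 months of age (mice 10, 11 and 17) and 3 old adults of 24 months of age (mice 2, 4 and 5), all euthanized under isoflurane anesthesia. Mice with visible tumors had been discarded, and 1 library per mouse was made from 10 ng of total RNA of powdered tissue. A p-value here measures the spread between these mice. In whole tissue, fewer cells of a type and less RNA per cell cannot be told apart.

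The libraries held 29495379 to 36494240 counts. At least 1 count lay on 33974 to 35651 genes in the 6-month-old mice and on 40208 to 43561 genes in the 24-month-old mice, at lower totals. Genes with hardly any RNA at 6 months, called silent genes below, had 0.0120 to 0.0145 CPM (counts scaled to a common library size) per exonic kb in the 6-month-old mice and 0.0351 to 0.0748 in the 24-month-old mice. The levels of several complement genes of low expression are therefore also given as multiples of the silent-gene level of their own library. Over all 32905 genes tested the median log2 fold change, 24 against 6 months, was 0.15, and over those averaging 1 TPM (counts scaled for gene length and library size) or more it was -0.12. With library totals in place of edgeR's TMM factors these medians were 0.34 and 0.07. The markers of cortical neurons were present in every library, with a summed TPM of 3941 to 5499 over 8 genes.

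Of the 9 complement genes, 0 passed the 1% false discovery rate (FDR) that the study used, nor did any of the 32905 genes tested (0%), in the quasi-likelihood test of edgeR. At 10% FDR, 3 of the 9 passed, as did 18.4% of all genes tested. These were C4b and C3, which were higher at 24 months (10.0% of all genes), and Cd55, which was lower (8.33% of all genes). Among genes averaging 1 TPM or more, as C4b and Cd55 did but C3 did not, 2.35% were higher and 14.7% lower. The same 3 genes had an unadjusted p under 0.05, a threshold that 30.7% of all genes passed. By edgeR's likelihood ratio test C4b passed 1% FDR as a higher gene (4.41% of all genes) and Cd55 as a lower gene (0.766%, and 5.18% in either direction), and the Wald test of DESeq2 placed the same pair below 1% FDR, with 1.65% of the genes it tested. On CPM scaled by TMM factors, all 24-month-old mice lay above all 6-month-old mice for C4b and C1qc (20.0% of all genes) and below them for Cd55 (16.3%). Of the 18619 genes tested that averaged 1 TPM or more, as these 3 did, 1164 lay above and 5232 below. The median log2 fold change of the 9 genes was 0.18, or 0.38 with library totals, both above the medians of all genes by less than 0.1. However, 8 of the 9 averaged 1 TPM or more, and the medians of all genes of such expression were lower, at -0.12 and 0.07.

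C1qa, C1qb and C1qc encode the 3 chains that together form C1q, the recognition molecule of the classical pathway. Their genes lie side by side on the minus strand of chromosome 4 (GRCm38): C1qb at chr4:136880129-136886187, C1qc at chr4:136889804-136893065 and C1qa at chr4:136895917-136898803. The promoters of C1qb (chr4:136886151-136886450) and C1qc (chr4:136892865-136893164) from RefSeq (GRCm38.p6) are shown because these neighbouring genes had nearly the same profile over the 6 mice. Each is 300 bases on the minus strand, written from 5′ to 3′. Capitals mark the core GAGGAA of the motif of PU.1, the factor that myeloid cells need for their identity, or its complement TTCCTC.
C1qb: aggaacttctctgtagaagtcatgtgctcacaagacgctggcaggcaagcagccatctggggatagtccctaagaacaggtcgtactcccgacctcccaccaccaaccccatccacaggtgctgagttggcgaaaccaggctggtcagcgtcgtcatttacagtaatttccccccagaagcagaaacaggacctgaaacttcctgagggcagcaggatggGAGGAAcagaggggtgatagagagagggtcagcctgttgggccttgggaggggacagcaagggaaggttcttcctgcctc
C1qc: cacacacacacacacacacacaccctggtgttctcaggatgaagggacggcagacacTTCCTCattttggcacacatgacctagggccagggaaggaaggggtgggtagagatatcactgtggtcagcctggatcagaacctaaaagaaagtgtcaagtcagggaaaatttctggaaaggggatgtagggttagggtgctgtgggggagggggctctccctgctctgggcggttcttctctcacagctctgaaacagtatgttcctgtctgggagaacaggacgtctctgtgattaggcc
The core lay at -30 from the RefSeq start site in C1qb and, on the other strand, at -193 in C1qc. It was present on either strand in 28.3% of 32851 mouse promoters of this length, so its presence here describes these sequences and does not mark a binding site.

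The C1q chains were the most abundant of the 9 genes at both ages, and none of them passed a threshold between the ages. C1qb had 181, 186 and 195 TPM in the 6-month-old mice 10, 11 and 17, and 288, 201 and 202 TPM in the 24-month-old mice 2, 4 and 5. C1qc had 103, 103 and 110 TPM at 6 months and 167, 119 and 123 TPM at 24 months. C1qa had 52.6, 60.5 and 58.0 TPM at 6 months and 90.2, 61.9 and 60.3 TPM at 24 months. For each chain mouse 2 stood far above the other mice of its age, whereas mice 4 and 5 lay close to the 6-month-old mice. The ages did not overlap in TPM for C1qb and C1qc and overlapped for C1qa. On CPM scaled by TMM factors C1qb overlapped too, with 56.3 to 60.3 at 6 months against 57.5, 57.7 and 82.3 at 24 months.

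The log2 fold change was 0.20 for C1qa (SE 0.16, FDR 0.427 in edgeR's quasi-likelihood test), 0.18 for C1qb (SE 0.14, FDR 0.391) and 0.26 for C1qc (SE 0.13, FDR 0.206). The 95% intervals of the fold ran from 0.893 to 1.47 for C1qa, from 0.914 to 1.41 for C1qb and from 0.977 to 1.47 for C1qc, so a rise of up to 1.41-fold is within each of them. Without mouse 2 the log2 fold changes were -0.0045, 0.0019 and 0.10 in the same order. With library totals as the scaling, C1qc reached 0.46 (FDR 0.086).

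**Figure D1:**
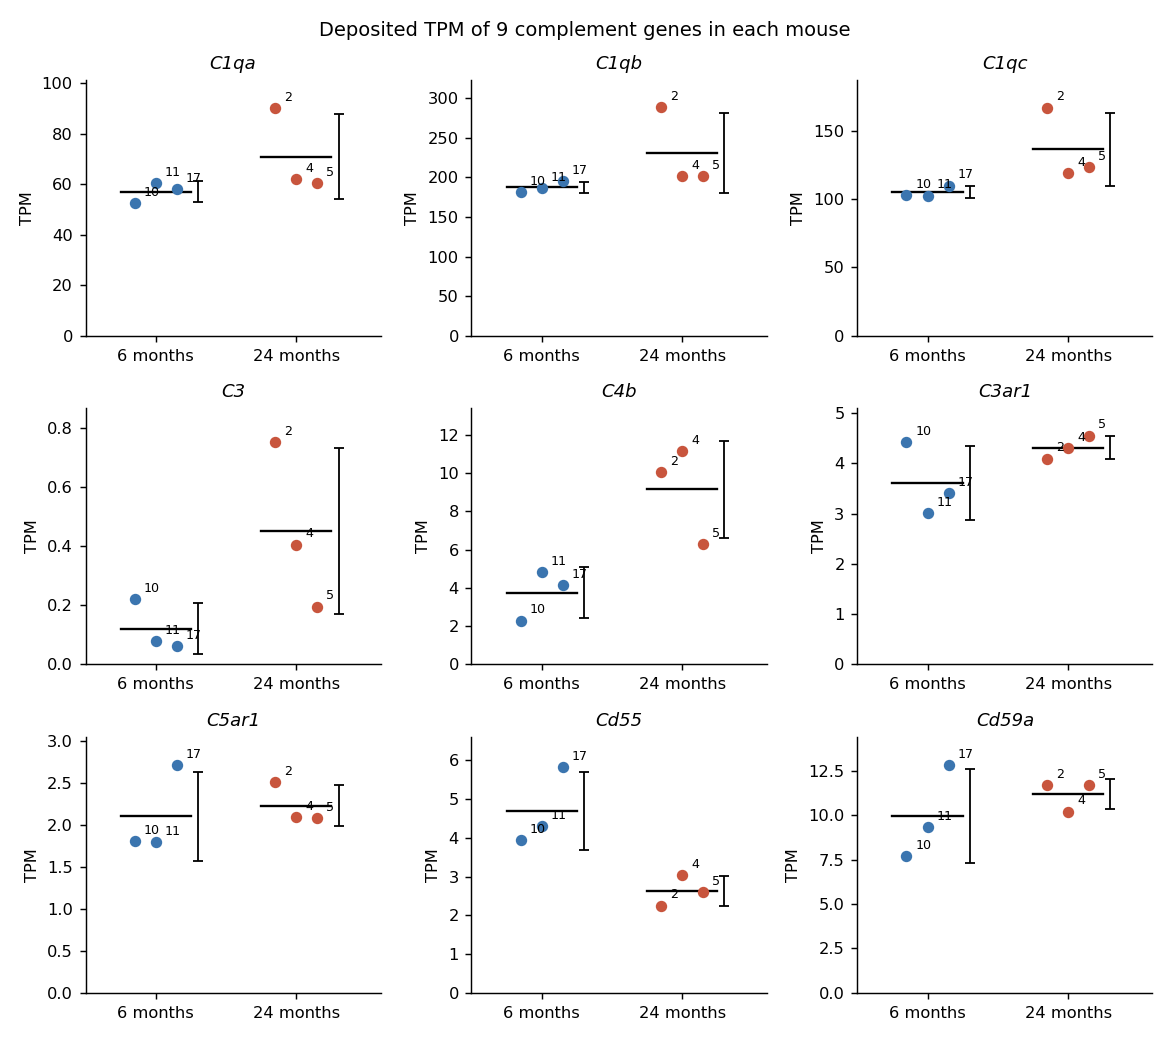
TPM of the 9 complement genes in each mouse (blue, 6 months; red, 24 months; labels give the mouse). Horizontal lines mark the mean and vertical bars the SD of 3 mice, and each axis starts at 0. C4b lies higher and Cd55 lower in all 24-month-old mice, and the C1q chains stand out in mouse 2.

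The proportions of the chains hardly differed between mice. C1qb made up 52.4% to 53.8% of the summed C1q TPM, C1qc 29.4% to 32.0% and C1qa 15.7% to 17.3%. The summed C1q TPM was 336, 349 and 363 at 6 months and 545, 382 and 385 at 24 months. The higher value of mouse 2 was thus carried by all 3 chains alike.

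The excess of C1q in mouse 2 was not seen in the summed level of other markers of microglia. The summed TPM of 10 microglial markers, among them Tmem119, P2ry12 and Cx3cr1, was 677, 671 and 671 at 6 months and 684, 712 and 758 at 24 months. The C1q chains amounted to 0.496, 0.520 and 0.541 of that sum in the 6-month-old mice, to 0.796 in mouse 2, and to 0.536 and 0.508 in mice 4 and 5. Mouse 2 also had the lowest sum of 8 oligodendrocyte markers (845 TPM, against 1446 to 2612 in the other mice) and of 7 endothelial markers (214 TPM, against 309 to 388).

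Base composition moved with mouse 2 as well. The longest transcripts of the C1q genes have a GC content of 57.4% to 59.5%, in the highest of 5 equal classes of the genes averaging 1 TPM or more. In that class the median log2 difference of mouse 2 from mice 4 and 5 was 0.051, against -0.18 in the class of lowest GC. The same difference was 0.56 for C1qa, 0.51 for C1qb and 0.46 for C1qc, above 92.0%, 90.7% and 88.9% of the genes of that class. The part of tissue composition and base composition in the C1q level of mouse 2 was not tested.

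C4b encodes complement component C4, the protein that C1s cuts after C1q has bound. The gene lies at chr17:34728380-34743882 on the minus strand. It had 2.29, 4.84 and 4.14 TPM in the 6-month-old mice, from 115, 269 and 219 counts. In the 24-month-old mice it had 10.0, 11.1 and 6.30 TPM, from 487, 577 and 321 counts. All old mice lay above all young mice, with mouse 5 nearest to the young mice and mouse 10 the lowest of all. The mean was 3.76 ± 1.32 TPM at 6 months and 9.16 ± 2.54 TPM at 24 months (SD, n = 3 each).

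C4b was 2.25-fold higher at 24 months (95% interval 1.47 to 3.46, log2 fold change 1.17, SE 0.28, edgeR's quasi-likelihood test, FDR 0.055). The likelihood ratio test gave an FDR of 0.0037 and DESeq2 0.0044. With each mouse left out in turn the log2 fold change was between 0.92 and 1.44, but the quasi-likelihood FDR exceeded 10% without mouse 10 (0.15), 11 (0.146), 2 (0.117) or 4 (0.166), fits in which 0 to 176 of all genes passed. With the expected background taken off the log2 fold change was 1.3 (SE 0.29, FDR 0.190), in a fit in which 35 of all genes passed 10% FDR. The level of C4b was 38.7 to 89.2 times that of silent genes in every library, with a mean of 72.6 at 6 months and 47.7 at 24 months. The silent-gene level itself was higher at 24 months, and C1qb was lower on this scale too, with means of 3697 and 1226. The background expected from silent genes was 2.3 to 3.0 counts at 6 months and 6.6 to 12.6 counts at 24 months, against the 115 to 577 counts measured.

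C4a, a close copy of C4b, lies on the same chromosome at chr17:34809092-34823464. A read of the trimmed length could not tell the copies apart at 25.9% of the positions of the longest C4b transcript (1374 of 5311 windows of 69 bases). C4a itself held 7, 8 and 4 counts at 6 months and 28, 21 and 11 counts at 24 months, at 1.31 to 2.81 times the level of silent genes. C4b thus had 17.9 to 59.7 times the TPM of C4a in the same mouse, and the 11 to 28 counts of C4a at 24 months stand against 321 to 577 of C4b.

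Relative to astrocytes, in which much brain C4 is made, C4b was also higher at 24 months in all mice. The summed TPM of 10 astrocyte markers, Gfap and Aqp4 among them, was 3111 to 3312 at 6 months and 3598 to 3766 at 24 months. C4b per 1000 TPM of these markers was 0.691, 1.56 and 1.26 in the 6-month-old mice and 2.7, 3.10 and 1.67 in the 24-month-old mice. The gap between mouse 11 and mouse 5 was small on this scale, although the ages did not overlap. Of the 10 astrocyte markers, Gfap, an intermediate filament of reactive astrocytes, was higher (log2 fold change 0.69, FDR 0.074) and the water channel Aqp4 was lower (-0.40, FDR 0.102) at an unadjusted p under 0.05 in edgeR's quasi-likelihood test.

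C3 encodes the component on which all complement pathways meet, and lies at chr17:57203970-57228136 on the minus strand. It was nearly absent from these cortices. The 6-month-old mice had 10, 4 and 3 counts (0.220, 0.0797 and 0.0628 TPM) and the 24-month-old mice 33, 19 and 9 counts (0.753, 0.406 and 0.196 TPM). The ages overlapped, since mouse 10 at 6 months had more C3 than mouse 5 at 24 months.

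The fitted difference of C3 was 3.43-fold (95% interval 1.36 to 8.68, log2 fold change 1.78, SE 0.60, edgeR's quasi-likelihood test, FDR 0.090). A background as high as that of silent genes would give 2.1, 2.7 and 2.5 counts at 6 months and 11.4, 9.4 and 5.9 counts at 24 months. C3 stood at 4.84, 1.47 and 1.19 times the silent-gene level in mice 10, 11 and 17, and at 2.91, 2.02 and 1.52 times in mice 2, 4 and 5. As a multiple of this background its mean was 2.50 at 6 months and 2.15 at 24 months, and the ages overlapped. Once the expected background was taken off, the log2 fold change of C3 was 2.01 (SE 1.03, FDR 0.395). It also exceeded 10% when any mouse but mouse 5 was left out, with log2 fold changes of 1.22 to 2.50.

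C3ar1 and C5ar1 encode the receptors of the anaphylatoxins C3a and C5a, which in the brain are carried mainly by microglia. C3ar1 (chr6:122847138-122856161) had 4.42, 3.0 and 3.40 TPM at 6 months and 4.09, 4.29 and 4.55 TPM at 24 months. C5ar1 (chr7:16246743-16259540) had 1.81, 1.80 and 2.72 TPM at 6 months and 2.51, 2.10 and 2.09 TPM at 24 months. The ages overlapped for both receptors.

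The log2 fold change of C3ar1 was 0.14 (95% interval -0.25 to 0.54, FDR 0.603) and that of C5ar1 -0.031 (-0.55 to 0.49, FDR 0.942) in edgeR's quasi-likelihood test. A rise of up to 1.40-fold of either receptor is within these intervals. The sign of the C5ar1 estimate turned with the scaling, to 0.16 with library totals. Per 1000 TPM of the microglial markers C3ar1 was 4.47 to 6.53 at 6 months and 5.98 to 6.03 at 24 months, and C5ar1 was 2.67 to 4.05 and 2.76 to 3.67. Among the old mice, C5ar1 was highest in mouse 2 and C3ar1 was lowest there.

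Cd55 encodes decay-accelerating factor, a membrane protein that takes apart the convertases that cut C3 and C5. The gene lies at chr1:130439027-130462744 on the minus strand. It had 3.95, 4.31 and 5.83 TPM in the 6-month-old mice, from 169, 204 and 263 counts. In the 24-month-old mice it had 2.25, 3.04 and 2.60 TPM, from 93, 134 and 113 counts. All old mice lay below all young mice. The mean was 4.70 ± 0.999 TPM at 6 months and 2.63 ± 0.394 TPM at 24 months (SD, n = 3 each).

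Cd55 at 24 months was 0.518 of its level at 6 months (95% interval 0.385 to 0.699, log2 fold change -0.95, SE 0.19, edgeR's quasi-likelihood test, FDR 0.052). The likelihood ratio test gave an FDR of 0.0020 and DESeq2 0.0035. Of all genes tested, 1.17% had a smaller p. The log2 fold change was between -1.06 and -0.76 with each mouse left out, and -0.76 with library totals. The quasi-likelihood FDR exceeded 10% without mouse 10 (0.15), 11 (0.153), 2 (0.109) or 4 (0.166). With the expected background taken off the log2 fold change was -0.92 (SE 0.20, FDR 0.177). That background was 1.9 to 2.6 counts at 6 months and 5.6 to 10.7 counts at 24 months.

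An antisense gene, Gm16083, shares 102 exonic bases with Cd55, and the counting used no strand, so reads there cannot be assigned to 1 of them. Gm16083 had 64, 67 and 78 counts at 6 months and 43, 30 and 59 counts at 24 months. Together with the neighbouring copy Cd55b, it shared 9.36% of the read-length windows of Cd55. Cd55b itself had 4 counts in all 6 libraries and was not tested.

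Cd59a encodes a membrane-anchored inhibitor of the last step of the cascade, the pore of C5b to C9. It lies at chr2:104095801-104115354 on the plus strand. It had 7.70, 9.34 and 12.8 TPM at 6 months and 11.7, 10.2 and 11.7 TPM at 24 months, and the ages overlapped. The log2 fold change was 0.054 (95% interval -0.38 to 0.49, edgeR's quasi-likelihood test, FDR 0.873). Its neighbouring copy Cd59b had 4.18, 3.39 and 3.48 TPM at 6 months and 4.61, 2.12 and 3.79 TPM at 24 months, with a log2 fold change of -0.19 (FDR 0.683).

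The membrane regulators were set against each other within each mouse. The ratio of Cd55 to Cd59a TPM was 0.513, 0.461 and 0.454 at 6 months and 0.193, 0.298 and 0.223 at 24 months. The ratio of Cd55 to Cr1l, the rodent regulator of C3 convertases also called Crry, was 0.528, 0.517 and 0.641 at 6 months and 0.265, 0.368 and 0.310 at 24 months. Both ratios were lower in all 24-month-old mice, and being ratios within a library they do not depend on its scaling. Both have Cd55 as their numerator, which was itself lower in all old mice, so they are not independent of that result. The ratio of C4b to Cd55 was 0.580, 1.12 and 0.710 at 6 months and 4.46, 3.67 and 2.42 at 24 months, and in each of the old mice C4b exceeded Cd55. Because C4b was higher and Cd55 lower in all old mice, this ratio had to separate the ages and is not a further result.

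**Figure D2:**
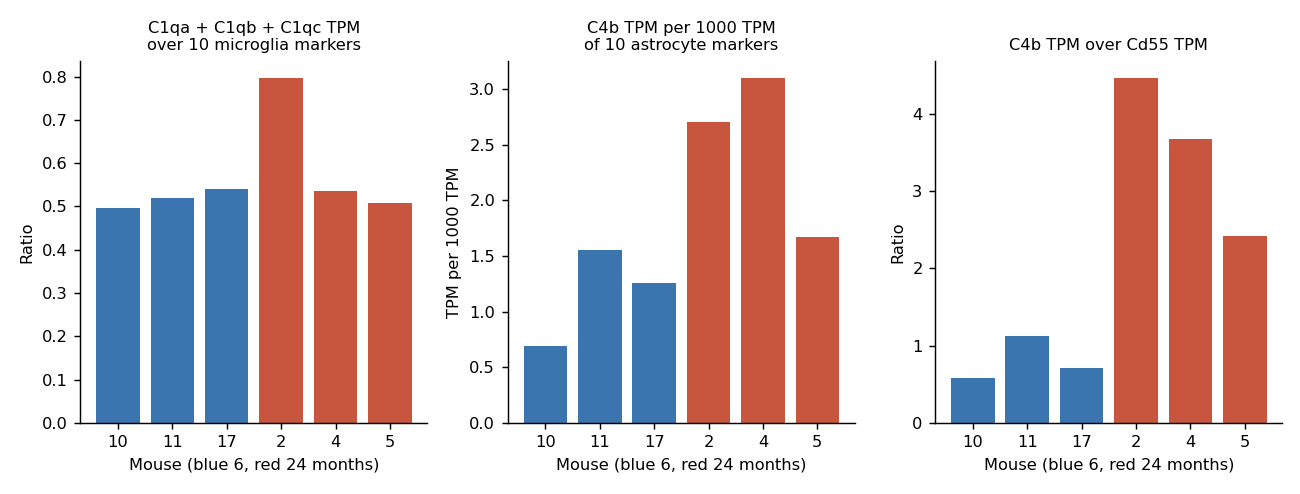
Ratios of TPM within each mouse, for C1q over microglial markers, C4b per 1000 TPM of astrocyte markers, and C4b over Cd55 (blue, 6 months; red, 24 months; bars start at 0, 1 bar per mouse). The C1q ratio stands out in mouse 2 at 0.796, whereas C4b over Cd55 is between 2.42 and 4.46 in all 24-month-old mice and at most 1.12 at 6 months. The separation of C4b over Cd55 follows from the separate levels of C4b and Cd55.

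The order of the 9 genes by mean TPM changed in the middle of the range. At 6 months it ran C1qb, C1qc, C1qa, Cd59a, Cd55, C4b, C3ar1, C5ar1 and C3. The ranges of the 3 mice overlapped between Cd55 and C4b and between C4b and C3ar1, and no other neighbours overlapped. At 24 months C4b followed Cd59a, with overlapping ranges, and Cd55 lay between C3ar1 and C5ar1, its range overlapping that of C5ar1. The mean of C1qb at 24 months was 230.3 TPM and that of C3 0.452 TPM.

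Of 46 other genes of the complement system, 43 were tested. At an unadjusted p under 0.05 (quasi-likelihood test of edgeR), 15 had higher values in the old mice and 2 had lower ones, where 17.6% and 13.1% of all genes tested did. At 10% FDR, 12 were higher and 1 was lower, where 10.0% and 8.33% of all genes tested were. Of these 12 genes, 11 had a mean TPM below 1. The median log2 fold change of the 43 genes was 0.43, or 0.62 with library totals, against 0.15 and 0.34 for all genes tested. Of the 15 higher genes, 14 had a mean TPM below 1.

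Of the 46 genes, 21 averaged 1 TPM or more. Only C1s1 among these was higher at an unadjusted p under 0.05, where 4.45% of all genes of such expression were, and Clu and Csmd3 were lower, where 23.0% were. The median log2 fold change of the 21 genes was -0.044. C1s1, the protease of the C1 complex that cuts C4, had 26, 31 and 23 counts at 6 months and 41, 63 and 45 counts at 24 months, without overlap (log2 fold change 0.85, SE 0.24, FDR 0.067). At 24 months it stood at 5.94 to 12.5 times the silent-gene level.

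Clu encodes clusterin, an abundant secreted protein that also inhibits the terminal complex. It had 917, 956 and 953 TPM at 6 months and 801, 860 and 848 TPM at 24 months (log2 fold change -0.28, SE 0.08, FDR 0.064). With library totals its log2 fold change was -0.093 (FDR 0.437). Csmd3, a large neuronal membrane protein with complement control repeats, had a log2 fold change of -0.30 (SE 0.12, FDR 0.130), or -0.11 with library totals (FDR 0.559). No other membrane regulator of the list passed the unadjusted threshold. Of the 9 membrane regulators tested in all, Cd55 was the 1 that passed 10% FDR. Of all genes averaging 1 TPM or more, 17.0% passed it.

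**Figure D3:**
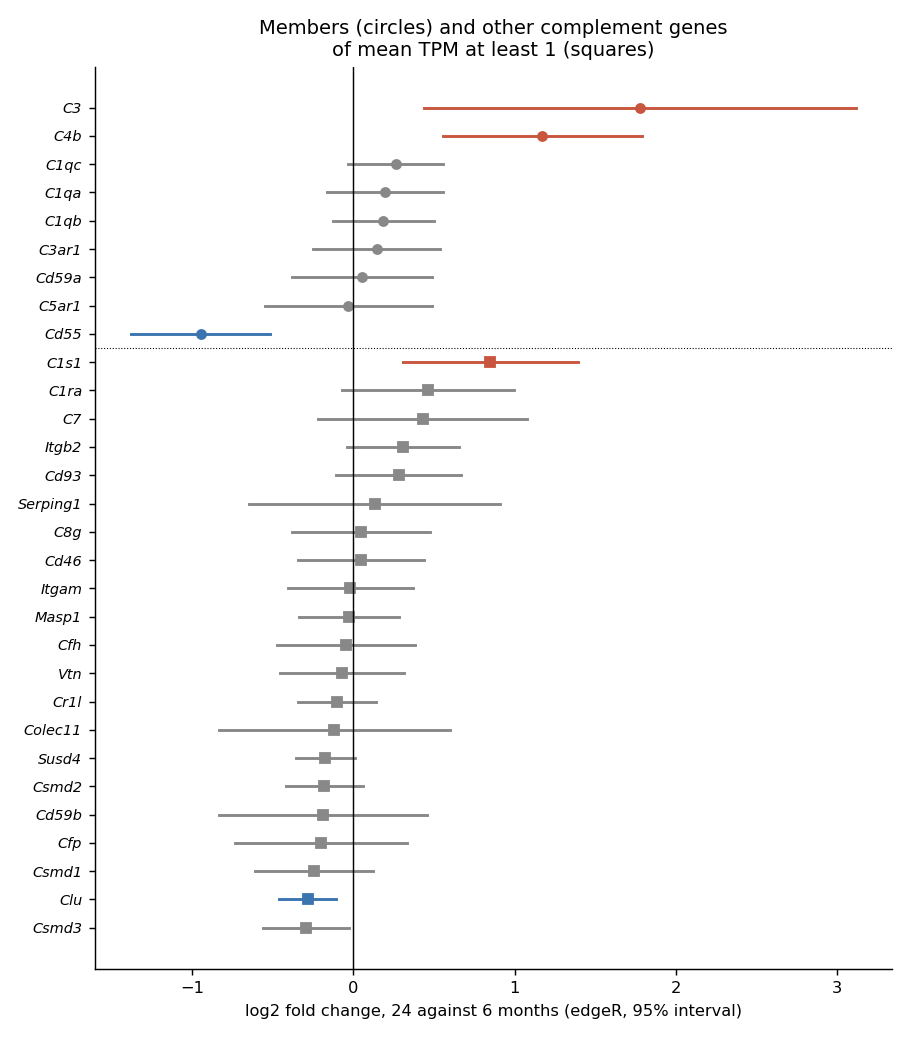
Log2 fold changes, 24 against 6 months, with 95% intervals from edgeR's quasi-likelihood test (n = 3 mice per age) for the 9 complement genes (circles, above the dotted line) and for the 21 other complement genes averaging 1 TPM or more (squares). Red and blue mark genes higher and lower at 10% FDR, which are C3, C4b and C1s1 against Cd55 and Clu.

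The other 25 genes had a mean TPM below 1, and 22 of them were tested. At an unadjusted p under 0.05, 14 were higher and 0 were lower, with a median log2 fold change of 1.56. Of all 14286 genes tested with a mean TPM below 1, 34.7% were higher and 0.217% lower at that threshold, with a median of 1.09, so this direction was that of such genes in general. Their mean level at 24 months was 0.353 to 7.16 times that of silent genes. C8a and C6, which encode parts of the membrane pore, had 2, 2 and 3 counts and 2, 3 and 1 counts at 6 months, and 16, 12 and 9 counts and 16, 11 and 6 counts at 24 months. These are 1.81 to 2.15 and 1.46 to 2.04 times the silent-gene level of the old mice, against 1.04 to 1.68 and 0.572 to 1.59 times in the young mice. C3 belonged to this range, whereas C4b did not.

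The same range held C9, Hc (component C5), C4bp, Cfi, Mbl2, C1s2 and C1rb, with at most 29 counts in any library. Itgax, a subunit of complement receptor 4, had 4, 5 and 5 counts at 6 months and 15, 18 and 15 counts at 24 months. As a multiple of the silent-gene level its mean was 2.05 at 6 months and 2.06 at 24 months. C5ar2, the second receptor of C5a, had 29, 18 and 21 counts at 6 months and 42, 40 and 41 counts at 24 months, without overlap (log2 fold change 0.80, SE 0.27, edgeR's quasi-likelihood test, FDR 0.088). With 1 mouse left out C5ar2 had log2 fold changes of 0.66 to 1.06 and an FDR of 0.105 to 0.242 in that test. It had the highest level of these genes at 24 months, 7.16 times that of silent genes, against 13.9 times at 6 months.

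**Figure D4:**
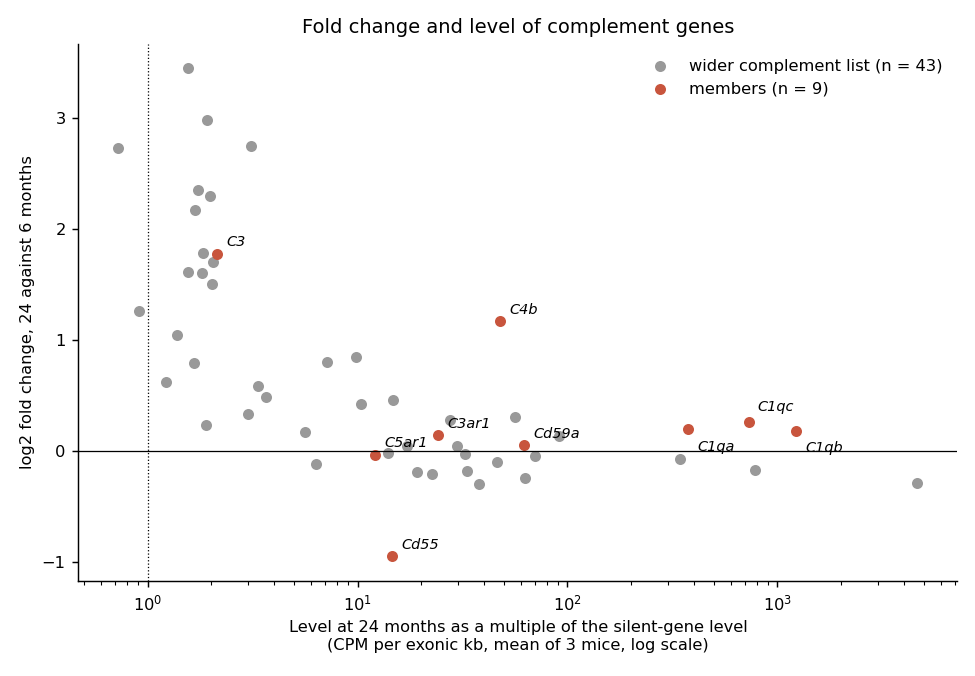
Log2 fold change, 24 against 6 months, against the mean level at 24 months as a multiple of the silent-gene level (CPM per exonic kb, log axis), for the 9 complement genes (red) and the 43 others tested (grey); the dotted line marks the level of silent genes. Most large fold changes, C3 included, lie within a few times that level, whereas C4b at 47.7 times and Cd55 at 14.7 times lie apart from it.

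Some markers of other cells differed between the ages too, and 17.6% of all genes tested were higher and 13.1% lower at the unadjusted threshold used here. Of 8 neuronal markers, Snap25, Syt1, Tubb3 and Neurod6 were lower and 0 were higher, with summed TPM of 4822 to 5499 at 6 months and 3941 to 4823 at 24 months. Of 8 markers of activated microglia, Ccl3, Cd68 and Cst7 were higher at an unadjusted p under 0.05 in edgeR's quasi-likelihood test and 0 were lower, with a summed TPM of 92.8 to 117.9 at 6 months and 99.1 to 131.7 at 24 months. Of 5 markers of monocytes and neutrophils tested, Ccr2, Plac8 and Ly6c2 were higher, with sums of 3.72 to 4.85 TPM and 2.78 to 10.9 TPM. Of 6 markers of border macrophages, which make C1q too, 0 passed in either direction, and their sums were 8.84 to 15.5 TPM and 9.24 to 17.9 TPM. Of the 10 microglial markers, 1 was higher and 1 was lower. Of 5 B and plasma cell markers tested, 4 were higher, with sums of 2.11 to 5.74 TPM at 6 months and 146.1, 181.8 and 11.3 TPM in mice 2, 4 and 5. Of 5 T cell markers, 3 were higher, with sums of 94.2 to 107.5 TPM and 87.7 to 99.6 TPM. Among 7 choroid plexus markers 2 were higher, with sums of 119.2, 42.4 and 66.2 TPM in mice 10, 11 and 17. Their sums were 118.7, 123.7 and 55.0 TPM in mice 2, 4 and 5. Among 5 red blood cell markers 3 were lower, with sums of 345.4 to 443.2 TPM and 277.7 to 389.3 TPM. Of all genes tested with a mean TPM below 1, 34.7% were higher at this threshold. An average of 1 TPM or more was reached by 1 of the 5 T cell markers and by 3 of the 6 listed for B and plasma cells. The same held for 2 of the 6 listed for monocytes and neutrophils and 5 of the 8 for activated microglia. The part of these cells in the values of C4b, C3, C1q, Cd55, Clu and Csmd3 was not tested.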

How the data were processed

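RNA-seq libraries of 6 mouse cortices were prepared by the authors with a low-input kit. The authors trimmed the reads of 75 bases with Trim Galore (version 0.6.4), mapped them to GRCm38 with STAR (version 2.7.3a) and assigned them to exons with featureCounts (Subread version 2.0.0), without strand. The deposited counts are whole numbers per gene and mouse, although the stated options split reads with several positions. The deposited TPM values are in the same row order as the counts. The authors computed TPM from counts and exonic lengths, and the lengths these values imply were within 1% of GENCODE vM21 for 48697 of 49024 genes. Of the identifiers, 55240 were found in vM21. No column of per-sample values was left unused.

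Counts were scaled by TMM and tested with edgeR (version 4.0.16) by the quasi-likelihood test, 24 against 6 months, over genes with at least 10 counts in the 6 libraries. P-values were adjusted over all genes tested by the Benjamini-Hochberg method. Standard errors are the log2 fold change divided by the square root of F. The script was tested on simulated data. DESeq2 (version 1.42.0), limma (version 3.58.1), other scalings, other filters, removal of the background and each mouse left out served as alternatives. Silent genes were autosomal, protein-coding, longer than 500 exonic bases and had no more than 2 counts in each of 2 young libraries, and their level was read in libraries not used to choose them. Of the wider complement list, the copies C4a, Cd55b and Cd59b and up to 15 genes averaging 1 TPM or more or with an unadjusted p under 0.05 were named, in order of p, apart from 1 that is not reported here. The members, the lists and the tests were chosen with earlier results of these data known. Promoter sequences matched 7 of the 9 members.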

Additional observations from a re-analysis of the deposited data

How the results depend on the processing

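With 3 mice per age the number of calls depended on single libraries. The number of genes at 1% FDR was 0 in edgeR's quasi-likelihood test, 1703 in the likelihood ratio test, 1122 in the exact test, 374 in DESeq2 and 42 with a minimum of 1 count, and 0 to 13 with 1 mouse left out. At 10% FDR it was 6040, against 3182 in DESeq2, 1538 with filterByExpr, 4014 with a minimum of 1 count, 71 and 538 with limma on log2(TPM + 1) and log2(TPM + 0.1), and 35 with the background taken off. It was 0 without mouse 10 or mouse 4, 1 without mouse 11, 176 without mouse 2, 2476 without mouse 17 and 7998 without mouse 5. The members at 10% FDR numbered 3 in the quasi-likelihood test and in DESeq2, 4 with library totals (4439 of all genes), 0 with either limma fit or the background taken off, 0 without mouse 10, 11, 2 or 4, and 2 to 3 without mouse 17 or 5. C4b was higher and Cd55 lower at 24 months in each of these fits. In the likelihood ratio test with all mice, 3 members and 7498 of the 32905 genes tested passed 10% FDR. With each mouse left out, an alternative chosen after seeing the data, 2 to 3 members passed it, and the number over all genes was not counted. At an unadjusted p under 0.05 there were 3 members, where 30.7% of all genes tested passed. There were 6 with library totals, a scaling that moved the median of all genes from 0.15 to 0.34. With 1 mouse left out there were 2 to 4. Of the 43 other complement genes tested, 17 passed it, 10 with filterByExpr, 9 with the background taken off and 12 to 17 with 1 mouse left out. The number over all genes at this threshold was not counted in the alternative fits.

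Log2 estimates near 0 turned their sign. With 1 mouse left out, C1qa ranged from -0.0045 (mouse 2; -0.0046 by likelihood ratio) to 0.30, C5ar1 from -0.12 to 0.20, Cd59a from -0.094 (mouse 10) to 0.28 and Cd59b from -0.42 to 0.081. C5ar1 was positive without mouse 17 (0.20), 4 (0.018) or 5 (0.018). C5ar1 was at 0.16 with library totals, 0.084 with filterByExpr, 0.0069 with a minimum of 1 count, and 0.068 and 0.10 with limma on the 2 TPM scales, and Cd59b was at 0.0058 with library totals. The causes were not tested. C3 had too few counts to be kept by filterByExpr. No paired analysis was possible because the mouse numbers of the 2 ages are not shared.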

Other observations

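The genes whose profile over the 6 libraries was most like that of C4b were looked for among 18611 genes averaging 1 TPM or more, by the root mean square difference of centred log2 CPM. They were Platr19, a long noncoding RNA (0.18), the pseudogene Scgb1b4-ps (0.19) and Gm43167 (0.20). Platr19 had 1.78, 3.15 and 4.04 TPM in the 6-month-old mice 10, 11 and 17 and 7.45, 7.95 and 4.96 TPM in the 24-month-old mice 2, 4 and 5. Scgb1b4-ps rested on at most 6 counts in any library.

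For the mean of the 3 C1q chains the nearest profiles were those of Zfp653 (0.055), Csnk1g2 (0.055) and Gm43457 (0.065), none of them a gene of microglial identity in the lists used. Zfp653 had 5.76, 6.54 and 7.02 TPM at 6 months and 10.6, 7.31 and 7.18 TPM at 24 months, with mouse 2 again the highest. The longest transcripts of Zfp653 and Csnk1g2 have a GC content of 55.0% and 57.3%, close to the 57.4% to 59.5% of the C1q genes. That of Gm43457 has one of 46.0%.

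Relative to genes of the same of 5 classes of GC content, the log2 difference of 24 from 6 months was 1.25 for C4b, -0.76 for Cd55 and 0.22 to 0.30 for the C1q chains.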
